A study of Mus musculus with 16 samples.

Results

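The 9 genes examined here serve retinol metabolism and retinoic acid signalling: Adh7, Adh1, Rdh10, Aldh1a1, Aldh1a2, Crabp1, Crabp2, Stra6 and Rarb. They were taken as every probe set that the platform annotation gives to one of these symbols alone, which were 11 of the 45101 probe sets on the array. Adh7 and Rdh10 each had 2 probe sets, and the brighter one stood for the gene. All 9 genes lay above the 40th percentile of the array on all 16 arrays, so each was among the 13644 genes tested of 18193 named.

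The arrays were Affymetrix Mouse430_2 arrays hybridised with total RNA of whole fetal adrenal glands. Groups of 4 arrays each were Dicer knockout (KO) and control at E15.5, and KO and control at E16.5. KO embryos carried Sf1-Cre, a Cre transgene active in steroidogenic cells including the adrenal cortex, with both Dicer alleles floxed (Dicer lox/lox), and Dicer, which matures microRNAs from their precursors, is lost where Cre is active. Controls were littermates without Cre, which the labels call WT, so presence of Cre and loss of Dicer cannot be told apart. The strain background is C57BL/6 for both genotypes. Parents carried Dicer lox/lox or Dicer +/lox, and the floxed alleles of the controls are not given further. Glands of a genotype were pooled within a litter, with 4 litters per stage, and cells that do not use Sf1 keep Dicer in both genotypes.

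Retinoic acid is made from retinol in a pair of oxidations. Alcohol and short-chain dehydrogenases (Adh7, Adh1, Rdh10) turn retinol into retinal, and retinal dehydrogenases (Aldh1a1, Aldh1a2) turn retinal into retinoic acid. Cellular retinoic acid binding proteins (Crabp1, Crabp2) carry it within the cell, where it is either cleared or delivered to nuclear receptors such as Rarb. Stra6 is a membrane receptor that takes up retinol. The alcohol dehydrogenases of this group have been described in the developing mouse adrenal.

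The promoter of Rarb is shown because this gene is the textbook direct target of retinoic acid. The sequences are RefSeq promoter windows (GRCm38.p6), cut to the 250 bases before the start of the transcript and written in the direction of transcription. Both starts lie inside the longer annotated span of their gene. In the Rarb window at chr14:16575477-16575726 (minus strand), capitals mark 2 copies of GTTCA with 6 bases between them, 52 to 37 bases before the start. Counted with the base before each copy, they read GGTTCA and AGTTCA with 5 bases between them. This is a direct repeat of the kind bound by retinoic acid receptors. In the Adh7 window at chr3:138217523-138217772 (plus strand), capitals mark TGAACT, which is the half-site AGTTCA read on the other strand, 221 to 216 bases before the start.
Rarb: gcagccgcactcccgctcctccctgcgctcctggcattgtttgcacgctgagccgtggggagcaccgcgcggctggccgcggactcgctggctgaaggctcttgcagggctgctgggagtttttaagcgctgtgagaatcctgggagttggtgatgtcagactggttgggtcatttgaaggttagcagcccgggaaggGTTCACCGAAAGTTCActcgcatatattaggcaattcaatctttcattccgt
Adh7: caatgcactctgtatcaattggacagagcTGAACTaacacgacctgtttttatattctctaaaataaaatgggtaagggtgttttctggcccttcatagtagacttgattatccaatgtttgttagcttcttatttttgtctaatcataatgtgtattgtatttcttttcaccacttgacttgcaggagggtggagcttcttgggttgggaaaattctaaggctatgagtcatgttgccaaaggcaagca
Searched on both strands of 32851 windows of this length, the repeat of GTTCA was found in 22 (0.067%). Among 11 windows of 7 members it was found in that of Rarb alone. The letters and spacing searched were those of the stretch marked in Rarb, so the match in Rarb was fixed in advance. AGTTCA, which also lies within the Rarb match, was found in 11.8% of windows and in those of Adh7 and Rarb among the members. The repeat of AGGTCA with 5 bases between its copies (0.00913% of windows) and CAAGGTCA (1.33%) had no match in a member window. Adh7 (chr3:138198064-138232042) and Adh1 (chr3:138277585-138290698) lie 45542 bases apart on the same chromosome. A match is a stretch of letters and not a shown binding site.

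Signals are on the log2 scale, where a step of 1 doubles the signal, and a difference is KO minus control throughout. A gene passed the test at an adjusted p under 0.05 (limma, Benjamini-Hochberg over all 13644 genes). Of the 9 members, 1 rose (Aldh1a1) and 1 fell (Adh7) at E15.5, and 1 fell (Adh7) and none rose at E16.5. The background was 3.69% of all genes tested higher and 2.18% lower at E15.5, and 6.99% higher and 3.55% lower at E16.5, 5.86% and 10.5% in both directions together. Of the genes that passed, 62.9% were higher in KO at E15.5 and 66.3% at E16.5, and with each array centred on its 75th percentile these shares were 42.6% and 42.3%. At an unadjusted p under 0.05 the members were 5 of 9 at E15.5 and 4 of 9 at E16.5, against 19.0% and 24.0% of all genes. KO and control values did not overlap for 3 of 9 members at E15.5 and 2 of 9 at E16.5, while 14.5% and 15.2% of all genes did not overlap. By direction, 1 member lay wholly above and 2 below at E15.5, and 2 below at E16.5, against 9.8% of genes above and 4.7% below at E15.5 and 10.4% above and 4.76% below at E16.5. The median difference over the 9 members was 0.16 at E15.5 and 0.20 at E16.5, beside 0.07 and 0.08 over all genes. With 9 genes, chosen with earlier results of these data known, these shares describe the members and set no rate.

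The signal of Dicer1 was the check of the labels. It was 8.23 ± 0.16 in KO glands and 8.59 ± 0.07 in controls at E15.5 (SD, n = 4), a difference of -0.35 (SE 0.11, adjusted p = 0.0638, limma), and 8.26 ± 0.14 in KO and 8.62 ± 0.16 in controls at E16.5, a difference of -0.36 (adjusted p = 0.0414). All KO arrays (8.002 to 8.357 at E15.5, 8.091 to 8.416 at E16.5) lay below all controls of their stage (8.495 to 8.641 at E15.5, 8.448 to 8.826 at E16.5), and the position of the probe sets relative to the deleted exons is not known here, which limits this check. Array-wide mean signal was 6.35 to 6.37 in KO and 6.31 to 6.32 in controls, and control replicate 2 at E16.5 had a 3′ minus 5′ signal of 3.15, against 0.19 to 1.62 in the others.

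**Figure D1:**
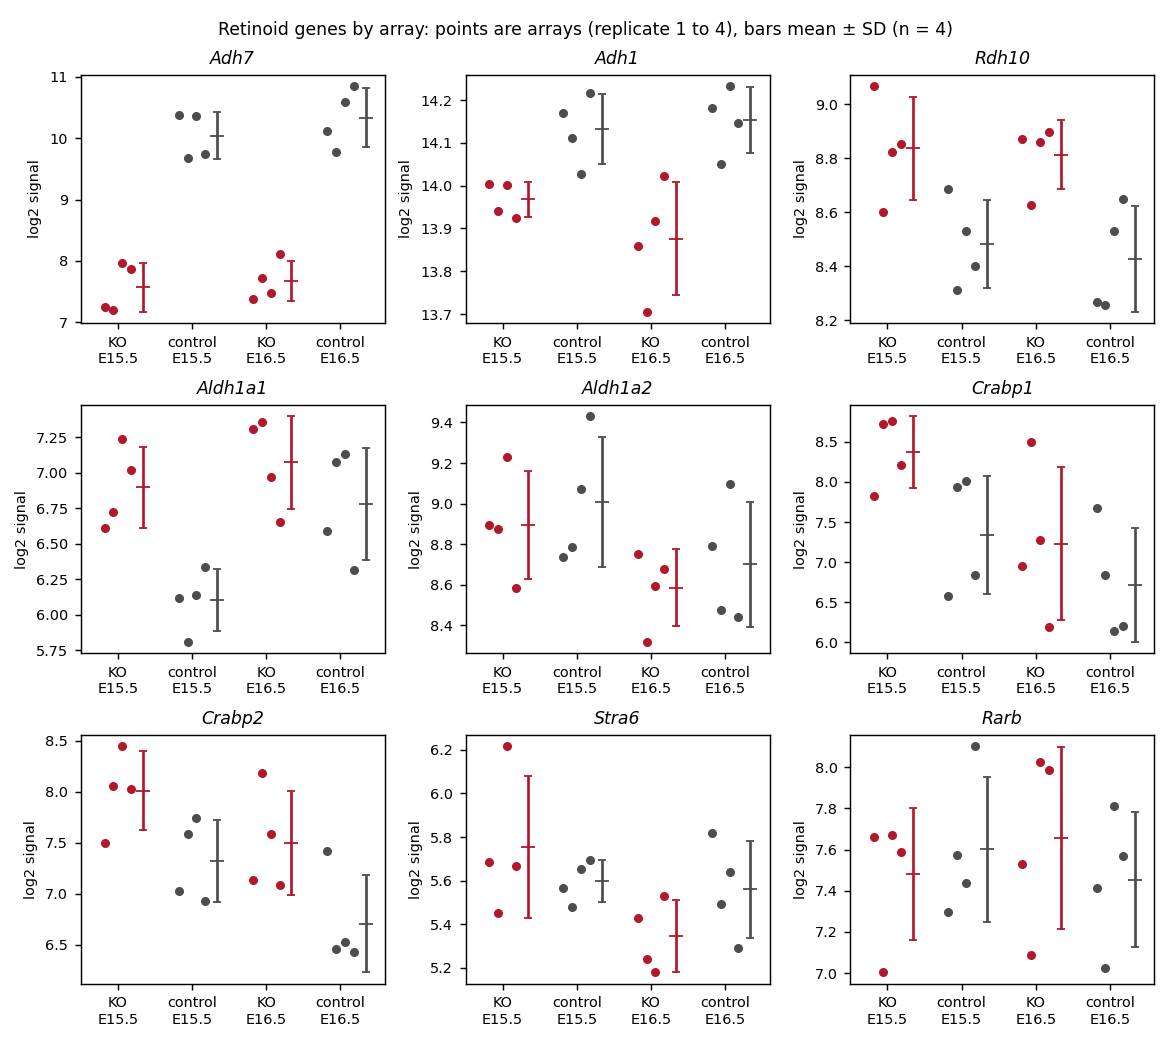
Log2 signal of the 9 retinoid genes on each array, with replicates 1 to 4 of each group as points and the group mean ± SD (n = 4) beside them; each panel has its own axis. Adh7 differs by -2.47 at E15.5 and -2.66 at E16.5 (KO minus control), and its KO values do not overlap the control values.

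Adh7, a class IV alcohol dehydrogenase that oxidises retinol, was the member that moved most. At E15.5 its log2 signal was 7.25, 7.20, 7.96 and 7.87 in KO glands, against 10.38, 9.67, 10.37 and 9.75 in controls. At E16.5 it was 7.38, 7.72, 7.48 and 8.12 in KO glands, against 10.12, 9.77, 10.58 and 10.86 in controls. Every KO array lay below every control array, and the gap between the groups was wider than the spread within either group. The difference was -2.47 (SE 0.26, adjusted p = 1.77e-05, limma) at E15.5 and -2.66 (SE 0.26, adjusted p = 4.51e-06) at E16.5, a signal 5.55 and 6.32 times lower in KO. Only 2 of 13644 genes had a lower difference at E15.5 and 5 at E16.5.

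The other Adh7 probe set also fell. It was tested among 28481 probe sets, of which 4.92% passed at E15.5 and 7.69% at E16.5. At E15.5 its signal was 5.96, 5.27, 6.38 and 6.08 in KO glands, against 9.03, 8.11, 9.27 and 8.32 in controls. At E16.5 it was 6.20, 6.29, 5.76 and 7.00 in KO glands, against 8.32, 9.43, 9.20 and 9.45 in controls. Again no KO array reached a control array at either stage. The difference was -2.77 (SE 0.33, adjusted p = 0.000128, limma) at E15.5 and -2.78 (SE 0.33, adjusted p = 6.87e-05) at E16.5. Adh7 also passed in each of the 16 fits that leave out 1 array, with differences from -2.60 to -2.35 at E15.5 and -2.85 to -2.49 at E16.5. In pooled whole glands, fewer cells of a type and less RNA per cell cannot be told apart.

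Adh1, the class I alcohol dehydrogenase that neighbours Adh7 on the chromosome, was lower in KO on every array but by little. Its signal was 14.00, 13.94, 14.00 and 13.92 in KO glands at E15.5, against 14.17, 14.11, 14.03 and 14.22 in controls. The E16.5 values were 13.86, 13.70, 13.92 and 14.02 in KO glands, against 14.18, 14.05, 14.23 and 14.15 in controls. The groups did not overlap at either stage, although neighbouring values came within a few hundredths. The difference was -0.16 (SE 0.09, adjusted p = 0.331, limma) at E15.5 and -0.28 (SE 0.09, adjusted p = 0.05002, just over the threshold) at E16.5. The call at E16.5 turned on single arrays and settings: it passed without KO replicate 4 (adjusted p = 0.0417) or control replicate 2 (0.0326), and when each array was shifted to a common 75th percentile (-0.37, adjusted p = 0.0181). It did not pass when arrays were rescaled by quantile normalization (-0.24, adjusted p = 0.147, limma) or by cyclic loess (-0.26, adjusted p = 0.0799). The Adh1 probe set was brighter than at least 99.75% of probe sets on every array, and the brightest probe set of an array stood at 14.47 to 14.6, so little room is left above it.

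Rdh10, a short-chain dehydrogenase needed for retinol oxidation in the mouse embryo, did not pass at either stage. Its brighter probe set read 9.07, 8.60, 8.82 and 8.85 in KO glands at E15.5, against 8.69, 8.31, 8.53 and 8.40 in controls. At E16.5 the readings were 8.87, 8.63, 8.86 and 8.90 in KO glands, against 8.27, 8.26, 8.53 and 8.65 in controls. KO values were mostly the higher ones. Replicate 2 was the lowest of its group at both stages in KO and in controls alike, and KO replicate 2 reached into the control range. The difference was 0.35 (SE 0.12, adjusted p = 0.116, limma) at E15.5 and 0.39 (SE 0.12, adjusted p = 0.0578) at E16.5. Without KO replicate 2 or without control replicate 4 the E16.5 difference passed, and across the fits that leave out an array of that stage its adjusted p ran from 0.0333 to 0.141. When arrays were rescaled the E16.5 difference was 0.30 and did not pass. The adjusted p was 0.164 with quantile normalization, 0.196 with arrays centred on their 75th percentile and 0.137 with cyclic loess (limma). The dimmer Rdh10 probe set ranged from 7.43 to 7.91 in KO glands and 7.34 to 7.91 in controls at E15.5, and from 7.41 to 7.75 in KO and 7.18 to 7.52 in controls at E16.5. It differed by 0.02 (SE 0.14) at E15.5 and 0.24 (SE 0.14, adjusted p = 0.370) at E16.5.

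Aldh1a1, a retinal dehydrogenase that makes retinoic acid, rose in KO glands at E15.5. Its signal there was 6.61, 6.72, 7.24 and 7.02 in KO glands, against 6.12, 5.81, 6.14 and 6.34 in controls. At E16.5 it was 7.31, 7.35, 6.97 and 6.65 in KO glands, against 6.59, 7.07, 7.13 and 6.31 in controls. The groups were apart at E15.5 and overlapped at E16.5. The control mean was 6.10 at E15.5 and 6.78 at E16.5, but control values of the stages overlapped and this difference did not pass (adjusted p = 0.253, limma). The difference was 0.79 (SE 0.20, adjusted p = 0.0285, limma), a signal 1.73 times higher, at E15.5 and 0.29 (SE 0.20, adjusted p = 0.422) at E16.5. The difference between the stages' effects was -0.50 (SE 0.29, 95% interval -1.11 to 0.11, adjusted p = 1.00), so the stages were not shown to differ. The call at E15.5 held in 3 of the 8 fits that leave out an array of that stage. It was lost without KO replicate 3 or 4 or control replicate 1, 2 or 3, with the adjusted p rising as far as 0.0942. It was also lost in a test against a minimum change of 0.154 in either direction (adjusted p = 0.0923, limma treat). That minimum is the median absolute difference of the 9007 dimmest probe sets.

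Aldh1a2, the retinal dehydrogenase that makes most retinoic acid in the early embryo, showed no difference that passed. It ranged from 8.58 to 9.23 in KO glands and 8.74 to 9.43 in controls at E15.5, and from 8.32 to 8.75 in KO and 8.44 to 9.09 in controls at E16.5. The groups overlapped broadly. The difference was -0.11 at both stages, with a 95% interval from -0.49 to 0.27 at E15.5 and from -0.50 to 0.27 at E16.5, and leaving out 1 array turned its sign at each stage. When arrays were weighted by their quality (arrayWeights), the E16.5 value was -0.42 and passed (adjusted p = 0.00963, limma). With these weights 3249 of all 13644 genes rose and 1689 fell at E16.5, against 954 and 485 in the data as deposited.

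Crabp1 and Crabp2, which bind retinoic acid in the cytoplasm and direct it to breakdown or to its receptors, had the widest spread of the members. Crabp1 read 7.82, 8.72, 8.76 and 8.21 in KO glands at E15.5, against 6.57, 7.93, 8.01 and 6.84 in controls, and 6.96, 8.50, 7.28 and 6.20 in KO at E16.5, against 7.67, 6.84, 6.14 and 6.20 in controls. Its groups overlapped at both stages, and the spread within a group was widest among KO glands at E16.5 (SD 0.96). The difference was 1.04 (SE 0.46, adjusted p = 0.222, limma) at E15.5 and 0.52 (SE 0.46, adjusted p = 0.550) at E16.5. The E16.5 value was 0.096 without KO replicate 2 and 0.864 without KO replicate 4.

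Crabp2 read 7.50, 8.06, 8.45 and 8.03 in KO glands at E15.5, against 7.03, 7.58, 7.74 and 6.93 in controls. At E16.5 it read 7.14, 8.18, 7.59 and 7.09 in KO glands, against 7.42, 6.45, 6.53 and 6.43 in controls. Most KO values were the higher ones, with control replicate 1 at E16.5 within the KO range. The difference was 0.69 (SE 0.28, adjusted p = 0.186, limma) at E15.5 and 0.79 (SE 0.28, adjusted p = 0.0870) at E16.5. Without control replicate 1 the E16.5 difference was 1.03 and passed (adjusted p = 0.0277). In all 4 groups the array highest in Crabp1 was also the highest in Crabp2, and in 2 of the 4 the lowest array was shared too. The plot of Crabp1 against Crabp2 shows this as a band running from lower left to upper right.

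**Figure D2:**
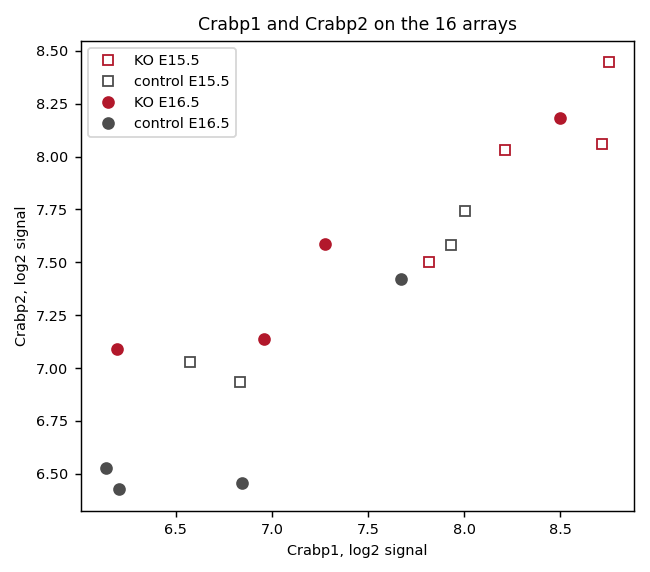
Log2 signal of Crabp1 (horizontal) and Crabp2 (vertical) on the 16 arrays, with KO arrays in red and controls in grey, open squares at E15.5 and filled circles at E16.5. In each of the 4 groups the array with the highest Crabp1 is also the highest in Crabp2.

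Stra6, the retinol uptake receptor and itself induced by retinoic acid in several cell types, did not pass. It ranged from 5.45 to 6.22 in KO glands and 5.48 to 5.69 in controls at E15.5. At E16.5 it ranged from 5.18 to 5.53 in KO and 5.29 to 5.82 in controls. Its percentile on an array ran from 40.7 to 55.0, so its signal was low and some arrays were barely over the filter. The groups overlapped at both stages. The difference was 0.16 (SE 0.15, adjusted p = 0.655, limma) at E15.5 and -0.22 (SE 0.15, adjusted p = 0.424) at E16.5. The E15.5 value was 0.0023 without KO replicate 3 and 0.258 without KO replicate 2, and the E16.5 value ran from -0.305 without control replicate 4 to -0.130 without control replicate 1. The test of the difference between these effects gave -0.37 (SE 0.21, unadjusted p = 0.0978, adjusted p = 1.00).

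Rarb, a retinoic acid receptor whose own transcription answers retinoic acid through the repeat printed above, did not pass either. Its signal was 7.66, 7.00, 7.67 and 7.59 in KO glands at E15.5, against 7.30, 7.57, 7.44 and 8.10 in controls. At E16.5 it was 7.53, 7.09, 8.03 and 7.99 in KO glands, against 7.41, 7.02, 7.81 and 7.57 in controls. Values of the genotypes were interleaved at both stages. The difference was -0.12 (SE 0.23, 95% interval -0.61 to 0.37) at E15.5 and 0.20 (SE 0.23, 95% interval -0.29 to 0.70) at E16.5. Both intervals hold changes in either direction, so neither a rise nor a fall was shown. They are no limit of detection, and changes beyond them can also be missed with 4 arrays per group.

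**Figure D3:**
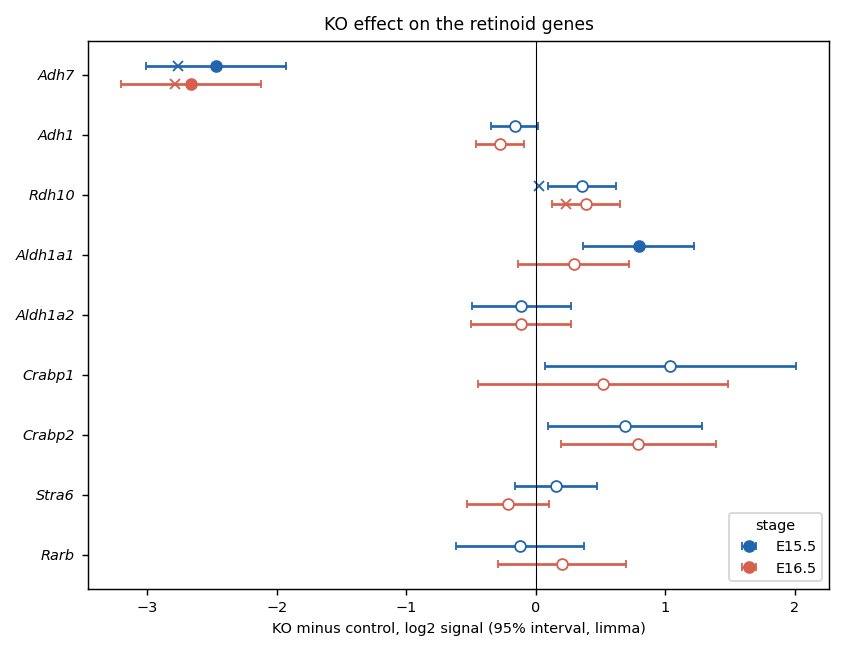
KO minus control in log2 signal for the 9 retinoid genes, E15.5 in blue above E16.5 in red, with 95% intervals from limma; filled points passed (adjusted p under 0.05) and crosses are the further probe sets of Adh7 and Rdh10. Adh7 passed at both stages, Aldh1a1 at E15.5, and the intervals of Crabp1 are the widest.

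None of the 9 effects was shown to differ between the stages. The test of the difference, E16.5 effect minus E15.5 effect, passed for none of the members and for 0 of all 13644 genes tested (0%, limma, 258 genes at an unadjusted p under 0.05, 1.89%), with member values from -0.52 for Crabp1 to 0.32 for Rarb. Over the day within a genotype, 0.901% of genes passed in KO and 0.0953% in controls, and no member did. The widest of these member values were -1.15 for Crabp1 in KO (SE 0.46, adjusted p = 0.390) and 0.68 for Aldh1a1 in controls (SE 0.20, adjusted p = 0.253).

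The rest of the pathway was described by a list of 76 further genes, of which 68 were on the array by symbol and 49 passed the filter and were tested. The other 8 were not analysed here, and 19 were below the filter, among them Cyp26a1, which breaks down retinoic acid, and Lrat, which stores retinol as esters. At E15.5, 2 of the 49 rose and 2 fell (8.16%, beside 5.86% of all genes), and at E16.5, 5 rose and 4 fell (18.4%, beside 10.5%). The median difference over the 49 was 0.11 at E15.5 and 0.15 at E16.5. These shares rest on few genes, from a list chosen with earlier results of these data known, and are given as a description. Of the calls, Aldh8a1, Aldh1a7 and Rbp2 passed the filter only or mainly through the genotype where they are high. The stricter filter removed these genes. At E15.5 they were all of the calls but that of Rdh13, so that share rests mainly on the filter. The E16.5 share depends on it in part.

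Among enzymes that oxidise or reduce retinol and retinal, 13 were tested. Rdh13, a retinol dehydrogenase-like protein of mitochondria, rose at both stages, with a mean of 8.38 ± 0.09 in KO glands and 7.70 ± 0.17 in controls at E15.5 (0.68, SE 0.13, adjusted p = 0.00358) and 8.41 ± 0.24 in KO and 7.81 ± 0.18 in controls at E16.5 (0.60, SE 0.13, adjusted p = 0.00601; SD, n = 4, limma). Aldh8a1, which oxidises 9-cis retinal, differed by 0.50 at E15.5 and 0.44 at E16.5 (adjusted p = 0.0109, then 0.0161, limma), averaging 5.23 ± 0.13 in KO glands and 4.73 ± 0.16 in controls at E15.5. It lay above the 40th percentile on 5 of 8 KO arrays and on 0 control arrays, so it entered the test only through the glands where it is high. Aldh1a7, a close paralog of Aldh1a1, differed by -0.76 at E15.5 and -0.60 at E16.5 (adjusted p = 0.0190, then 0.0470), opposite in sign to Aldh1a1. It was above the 40th percentile on 1 KO array and 6 control arrays, so it entered mainly through the controls, and cross-hybridisation between these paralogs was not tested. At E16.5 Dhrs3, which reduces retinal back to retinol, rose by 0.45 (adjusted p = 0.0259), while Akr1b8, an aldo-keto reductase, fell by 0.64 and Adh5, a class III alcohol dehydrogenase, by 0.24. The rises of Rdh13 at both stages and the fall of Akr1b8 at E16.5 held in all 8 fits that leave out an array of that stage. The Aldh8a1 call held in 8 such fits at E15.5 and 6 at E16.5. These fits reuse the filter that Aldh8a1 passed only through KO arrays, so they lend its calls no support. Both Aldh8a1 calls were lost when arrays were centred on their 75th percentile (adjusted p = 0.0701 and 0.104, limma). The Aldh1a7 call held in 4 such fits at E15.5 and 3 at E16.5, the Dhrs3 rise held in 4 and was lost when arrays were rescaled, and the Adh5 fall held in 1. Aldh1a3, the third retinal dehydrogenase, differed by 0.05 (SE 0.12) and 0.35 (SE 0.12), and neither value passed.

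Of the 36 pathway genes with other roles, 1 passed at E15.5 (2.78%, beside 5.86% of all genes) and 3 at E16.5 (8.33%, beside 10.5%). Among 8 uptake, transport and storage genes, Rbp2, a cellular retinol binding protein, differed by -0.55 at E15.5 and -0.51 at E16.5 (adjusted p = 0.0351, then 0.0360), averaging 4.94 ± 0.24 in KO glands and 5.49 ± 0.10 in controls at E15.5 (SD, n = 4), and its call held in 2 of 8 fits that leave out an array at each stage. It was above the 40th percentile on 2 KO arrays and on all 8 control arrays, so it entered the test mainly through the controls. Lpl, a lipase that can hydrolyse retinyl esters, rose by 0.56 at E16.5 (adjusted p = 0.0284) in the data as deposited and not when arrays were rescaled. Rbp4, the retinol carrier of plasma, differed by 0.14 with an SE of 0.85 and 0.21 with the same SE. No clearance gene passed of 2 tested: Cyp26b1 differed by -0.39 (SE 0.19) and -0.08. None of 5 further receptors passed, with Rara at 0.50 (SE 0.15, adjusted p = 0.0697) and 0.15, Rarg at 0.11 and -0.06, Rxra at -0.15 and 0.15, and Rxrg at 0.23 and 0.09. Fabp5, a carrier of retinoic acid, differed by 0.19 and 0.22, and none of 7 receptor partners passed by its brighter probe set. A further probe set of Ncoa3, a receptor coactivator, did pass at E16.5 (0.48, adjusted p = 0.0387 among 28481 probe sets), while the brighter one gave 0.26 (adjusted p = 0.445). Of 13 genes reported as targets of retinoic acid, Hoxb4 rose by 0.63 at E16.5 (7.97 ± 0.14 in KO glands against 7.34 ± 0.21 in controls, adjusted p = 0.00711) and the other 12 did not pass at either stage. A further Hoxb4 probe set gave 0.67 (adjusted p = 0.00738) at E16.5. A stricter test asked for more than a minimum change in either direction, 0.154 at E15.5 and 0.142 at E16.5 (limma treat). Rdh13 still passed it at both stages (adjusted p = 0.0210, then 0.0315) and Hoxb4 at E16.5 (0.0337). No other call among the 49 did, Aldh8a1 (0.0923, then 0.107), Aldh1a7 (0.0736, then 0.152) and Rbp2 (0.174, then 0.149) included.

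**Figure D4:**
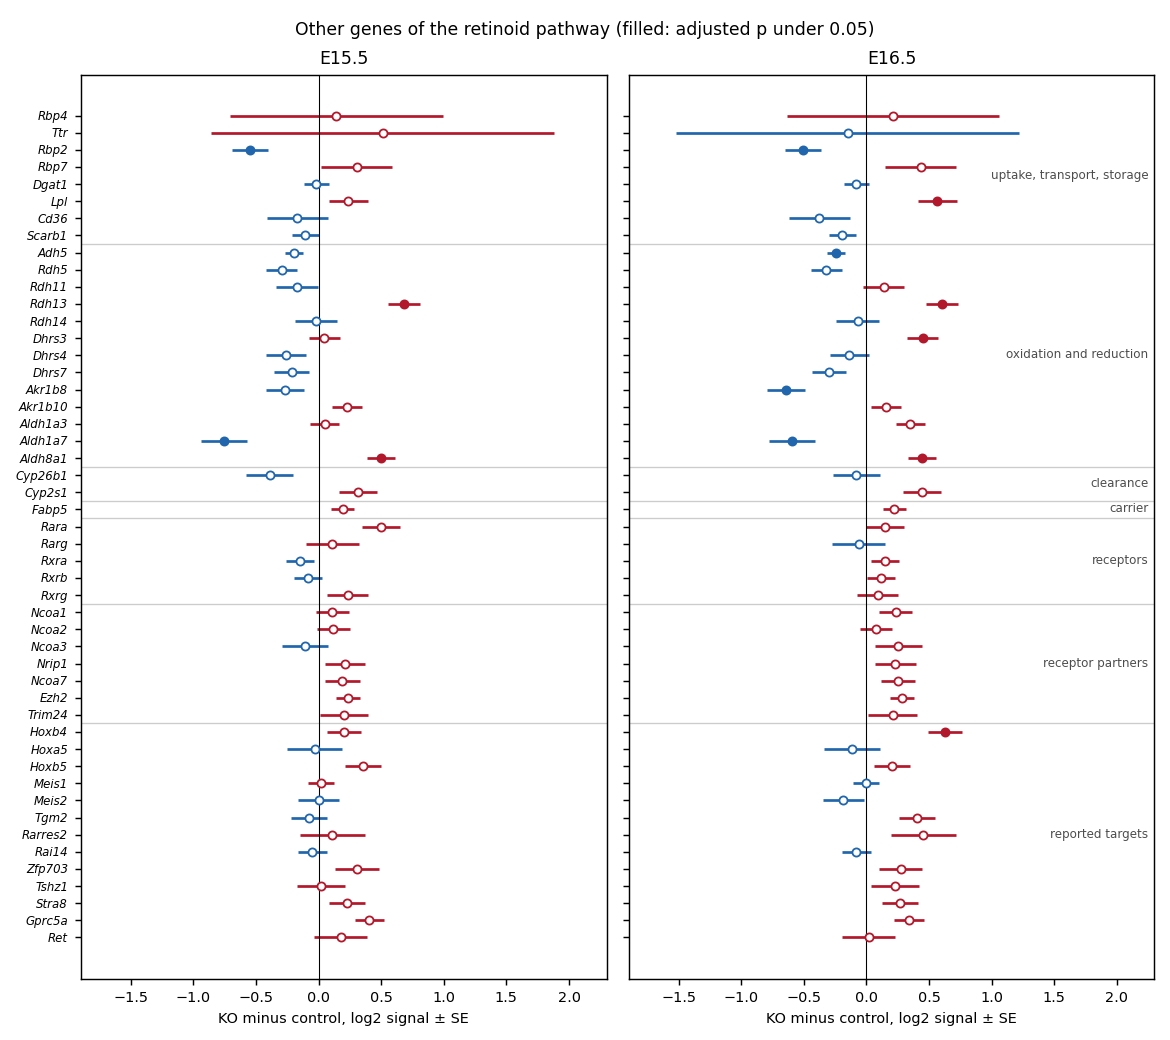
KO minus control in log2 signal ± SE for the 49 other pathway genes tested, by role, at E15.5 (left) and E16.5 (right); red is higher and blue lower in KO, and filled points passed (adjusted p under 0.05). At E15.5, 2 points are filled to the right and 2 to the left, and at E16.5 these numbers are 5 and 4.

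Marker sums of several cell types stood apart between the genotypes, 3 of 11 lists at E15.5 and 5 of 11 at E16.5. Of single genes, 14.5% and 15.2% did not overlap, and no such share was worked out for sums. The counts of markers below stand beside 3.69% of all genes that rose at E15.5 and 6.99% at E16.5, and 2.18% and 3.55% that fell. Summed signal of 11 macrophage markers was 12.7 to 12.9 in KO glands and 11.7 to 12.1 in controls at E15.5, and 13.2 to 13.6 in KO and 12.02 to 12.42 in controls at E16.5, with 6 and then 11 of the 11 rising, Csf1r among them (1.10 and 1.12). Of 11 adrenal cortex markers 3 fell at E15.5 and 6 at E16.5, with Cyp11b1 at -0.94 and -1.58 and Nr0b1 at -1.34 and -1.19; their summed signal was 16.29 to 16.54 in KO glands and 16.51 to 16.80 in controls at E15.5, and 16.1 to 16.4 in KO and 16.6 to 16.8 in controls at E16.5. Chromaffin cell markers summed to 14.81 to 14.97 in KO glands and 14.31 to 14.71 in controls at E15.5, and to 14.95 to 15.32 in KO and 14.32 to 14.89 in controls at E16.5, with 0 and then 3 of 10 rising. The other lists that stood apart were gonad and germ cells at E15.5 (7.97 to 8.23 in KO, 7.78 to 7.93 in controls) and, at E16.5, capsule and mesenchyme (15.75 to 15.98 in KO, 15.46 to 15.72 in controls) and kidney (10.61 to 10.71 in KO, 10.15 to 10.56 in controls), all higher in KO. Below the filter, yet in these sums, were 3 of 6 gonad and germ cell markers and 4 of 8 kidney markers on the array. The 9007 dimmest probe sets had a median difference of 0.10 at E15.5 and 0.07 at E16.5. The part of this offset in the sums was not tested. Nor was the part of the marker shifts in the members' results. Adh1, Aldh1a1, Rbp4 and Ttr are also expressed in liver, and the summed signal of 6 liver markers was 10.3 to 13.9 in KO glands and 9.67 to 13.9 in controls at E15.5, and 9.17 to 14.3 in KO and 11.0 to 13.7 in controls at E16.5. The part of this spread in the values of those genes was not tested.

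The genes whose profile over the 16 arrays was most like that of Adh7 were Trp63, a transcription factor of epithelia, with a Pearson r of 0.96, Tmem35a, a membrane protein, with 0.96, and Sgk2, a serum and glucocorticoid regulated kinase, with 0.95, across 16 arrays that share the genotype split. Within the groups, with group means removed, these values were 0.57, 0.42 and -0.14, so most of the likeness is the step between genotypes. They were picked for this likeness, which fixes the direction of their differences, and no test is given. The differences were -0.53 and -0.53 for Trp63, -1.81 and -1.80 for Tmem35a, and -2.07 and -2.51 for Sgk2. Trp63 lay above the 40th percentile on 0 KO and 6 control arrays, and Sgk2 on 0 KO and 8 control arrays. Adh7 was chosen for this comparison because it alone passed at both stages.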

How the data were processed

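Whole adrenal glands of 16 mouse embryo pools were profiled on 16 arrays, 4 per group. The deposited log2 values of 45101 probe sets were made by the authors with RMA, according to the notes on processing that the submitters gave, where limma is named too. Versions, and whether all arrays were normalized together, are not given in the sources used here. RMA corrects background, equalises probe intensities between arrays and summarises the probes of a set, which compresses dim signals. They were used as deposited.

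Gene names came from the platform annotation, updated by gene identifier. Of probe sets other than 64 controls, 34945 had 1 symbol, 932 several and 9160 none, and those with several or none named no gene. The probe set of highest mean signal stood for its gene. Genes were tested where it exceeded the array's 40th percentile on 4 or more arrays. A model with 1 mean per group was fitted over all 16 arrays with limma 3.58.1 in R 4.3.3 (lmFit, eBayes, two-sided, Benjamini-Hochberg over 13644 genes). The number of arrays limits precision: the median SE of a KO difference was 0.139. The same code was tested on simulated data. KO and control pools of a stage came from the same 4 litters, but the labels do not say which pools share one, so litter is no term of the model and p-values measure the spread between pools of a genotype. Alternatives were 2 filters, 3 rescalings, array weights, an allowance for the offset of dim probe sets, the replicate number as a block, each array left out, each stage alone and the further probe sets.

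The genes named are the 9 members, the pathway genes that passed with a fixed set of further ones, the 3 genes most like Adh7, up to 3 markers of a list, and Dicer1. Members and lists were chosen with earlier results of these data known. Promoter windows come from RefSeq (GRCm38.p6); Rdh10 and Crabp2 have none in the table used.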

Additional observations from a re-analysis of the deposited data

Results flagged for a closer look

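In 3 of 44 groups of 4 member values, the highest or lowest array lay far from the others for its group's range. Chance puts about 1 in 20 groups in this class. For Rdh10, the brighter probe set read 8.63 on KO replicate 2 at E16.5, against 8.86 to 8.90 on the other KO arrays of that stage. For Crabp2, control replicate 1 at E16.5 read 7.42, against 6.43 to 6.53 on the other controls, and the same array was the highest control in Crabp1. For Rarb, KO replicate 2 at E15.5 read 7.00, against 7.59 to 7.67 on the other KO arrays.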

How the results depend on the processing

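Adh7 fell at both stages in all 16 fits that leave out an array and under all other alternatives run. Adh1 at E16.5 passed with no filter (-0.28), with each array centred on its 75th percentile (-0.37) and with arrayWeights (-0.29). Apart from the fits that leave out 1 array, 9 alternatives were run for it, and it passed in these 3 alone. With an array left out Adh1 ranged from -0.33 to -0.22. Aldh1a1 at E15.5 (0.79) no longer passed against the minimum change (treat), and ranged from 0.68 to 0.89 with an array left out. Stra6 has no value under the stricter filter, which removed it.

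ArrayWeights turned the sign of Aldh1a1 KO minus control at E16.5 (-0.14) and of the day's difference for Rdh10 in KO (0.0501) and in controls (0.0177), and in controls for Aldh1a2 (0.104), Stra6 (0.0464) and Rarb (0.25). The cause was not tested. Leaving out 1 array turned small values: KO minus control of Aldh1a2 (-0.223 to 0.0301 at E15.5, -0.200 to 0.0168 at E16.5) and of Rarb at E15.5 (-0.222 to 0.0465); the difference of KO effects of Rdh10 (-0.045 to 0.111), Aldh1a2 (-0.14 to 0.13) and Crabp2 (-0.12 to 0.34); the day in KO of Adh7 (-0.043 to 0.236) and Rdh10 (-0.101 to 0.0547); and the day in controls of Adh1 (-0.0133 to 0.0554), Rdh10 (-0.131 to 0.0118), Stra6 (-0.124 to 0.0512) and Rarb (-0.266 to 0.0194).

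Counts of the retinoid members that rose were 0 at E15.5 with the minimum change. At E16.5 they were 1 with no filter, 2 with arrayWeights and 1 with the replicate block. Those that fell at E16.5 were 2 with no filter, 2 with centring and 4 with arrayWeights (Rdh10 and Crabp2 rose, Aldh1a2 and Stra6 fell with Adh7 and Adh1). The arrayWeights counts at E16.5, here and for the pathway list below, stand beside 3249 of all 13644 genes that rose and 1689 that fell. With an array left out, 0 to 1 rose at each stage and 1 to 2 fell at E16.5.

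Of the retinoid pathway list genes, those that rose and fell at E15.5 were 4 and 3 with no filter and 1 and 0 with the stricter filter. They were 1 and 2 with centring, 4 and 2 with arrayWeights and 1 and 0 with the minimum change. Quantile normalization gave 2 and 1, as did the replicate block. At E16.5 they were 4 and 1 with the stricter filter, 3 and 2 with quantile normalization, 2 and 4 with centring and 3 and 3 with cyclic loess. They were 17 and 7 with arrayWeights, 2 and 0 with the minimum change and 4 and 2 with the replicate block. The 8 arrays of the stage alone gave 2 and 0. With an array left out, 2 to 4 rose and 0 to 2 fell at E15.5, and 3 to 6 rose and 1 to 5 fell at E16.5.

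Over all genes, those that rose and fell at E15.5 were 503 and 297 in the data as deposited. They were 1127 and 561 with no filter, 244 and 170 with the stricter filter and 276 and 372 with centring. Quantile normalization gave 373 and 350, arrayWeights 853 and 497 and the minimum change 217 and 149. At E16.5 they were 954 and 485 in the data as deposited, 1568 and 787 with no filter and 603 and 296 with the stricter filter. Quantile normalization gave 606 and 570, centring 447 and 609 and cyclic loess 694 and 625. ArrayWeights gave 3249 and 1689, the minimum change 379 and 245 and the stage alone 529 and 288. With an array left out, 348 to 671 rose and 202 to 388 fell at E15.5, and 609 to 1173 rose and 326 to 532 fell at E16.5.

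With the replicate number as a block (replicate block), Rdh10 at E16.5 passed (0.39, adjusted p = 0.0269), and the other members kept their side of the threshold. Same-numbered KO and control arrays correlated from -0.39 to 0.45 in their deviations, 5 of 8 pairs above 0.1, and 6 of 16 arrays correlated best with their own number, so the numbers were not taken to pair the samples. With 4 arrays per group, the wide intervals of Crabp1, Crabp2 and Rarb leave changes of the size of their values undetected.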
